A study of Mus musculus with 27 samples.

Results

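Liver RNA collected 2 days after weaning was compared with liver RNA of nulliparous mice, which had not been pregnant. The comparison rests on 7 of the 27 libraries of the series, chosen by their titles: 3 libraries of involution day 2 (ID2_224, ID2_31 and ID2_39) and 4 of the nulliparous group (NUL_220, NUL_221, NUL_226 and NUL_227). All mice were wild-type BALB/c. The ID2 dams were bred at 10 to 12 weeks of age, nursed litters of equalised size and lost their pups between 10 and 14 days of lactation. Their livers were taken 2 days later, and the NUL livers came from non-pregnant mice of matched age. The other groups are lactation day 10 (LAC, 3 libraries), days 4, 6 and 8 after weaning (ID4, ID6 and ID8 with 4, 6 and 3 libraries) and 4 weeks after weaning (REG, 4 libraries). The study follows how the liver is remodelled over a reproductive cycle.

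In rodents the liver grows during pregnancy and lactation and supplies glucose, lipid and plasma protein while milk is made. Weaning ends that demand abruptly, food intake falls, and the liver returns toward its earlier size over the following days. Within the liver the hepatocyte holds the full urea cycle together with most enzymes of amino acid breakdown. Many of its metabolic genes also follow the circadian clock, a feedback loop in which CLOCK and BMAL1 (encoded by Arntl) drive the period and cryptochrome genes, whose products repress them.

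Each library was made from whole liver that was frozen and powdered, and held between 53061082 and 72090249 expected counts over all genes. The 12 hepatocyte markers were all detected in every library. Their summed level was 167198 to 185509 CPM (counts scaled to a library total of 1000000) in ID2 and 122964 to 153809.9 in NUL, so the groups did not overlap. Alb, which encodes albumin, made up most of that sum: it stood at 124205, 113939 and 122320.2 CPM in ID2 and at 94544, 74654, 98164 and 91781 CPM in NUL, and did not pass the test (log2 fold change 0.42 ± 0.14 (SE), adjusted p = 0.112). In bulk RNA, fewer cells of a type and less RNA per cell cannot be told apart. ID2_31 stood apart through 23 genes of the pancreatic acinar cell, which summed to 2509 CPM there, to 10.6 and 18 CPM in ID2_224 and ID2_39 and to between 19.9 and 34.3 CPM in NUL. Prss2, a trypsinogen, was at 129 CPM in ID2_31 and at 0 in the other 6 libraries. Of these 23 genes, 14 were at 0 in every NUL library, and the 7 that passed the test are not described with the gene groups below because 1 library carries them. Amy2a1, a pancreatic amylase, and Klk1, a kallikrein, named after their values were seen, were also called (adjusted p = 0.0469 and 0.0224). Their adjusted p was 0.92 and 0.969 without ID2_31, and between 0.0568 and 0.124 without any single NUL library. Of 9 adipose markers, 7 were at 1 CPM or more in ID2_31, against 4 or 5 in the other 6 libraries. The 8 tested had a median log2 fold change of 1.43, which was -0.01 without ID2_31, and 0 were called. The adipose sum in ID2_31 (655 CPM) lay between those of ID2_39 (546) and ID2_224 (720.2). ID2_31 and ID2_39 have title numbers under 200, while ID2_224 and all NUL libraries have numbers above it, and the labels do not say what the numbers mean. The time of day of collection is not given in the sources used here. The labels do not say beyond the title numbers that libraries of a group come from separate mice, so the p-values measure the spread between these libraries.

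Among 16428 tested genes, 532 passed an adjusted p under 0.05 in edgeR's quasi-likelihood test, 3.24% of the genes. The test called 381 genes higher at ID2 (2.32%) and 151 lower (0.919%). Most changes were modest: the median log2 fold change was 0.603 among the genes called higher and -0.573 among those called lower, and 118 genes changed by more than 1 on the log2 scale, 88 of them upward. The CPM of the 3 ID2 libraries lay wholly above or below that of the 4 NUL libraries for 17.9% of all tested genes and for 512 of the 532 called. On the scale of TPM (transcripts per 1000000, corrected for length), tested with limma in place of edgeR, the split was more even. It was 202 higher and 146 lower with a pseudocount of 1 (58% higher against 71.6% on counts). With a pseudocount of 0.1 it was 179 and 139 (56.3% higher). In edgeR with effective length as an offset, 288 were higher and 104 lower (73.5% higher). The cause of the more even split was not tested. One library weighs heavily on the count. Without ID2_39 the test called 161 genes (0.957%), of which 157 were among the 532. Without ID2_31 it called 276 (1.64%), without ID2_224 344, without NUL_226 308 and without NUL_221 327.

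**Figure D1:**
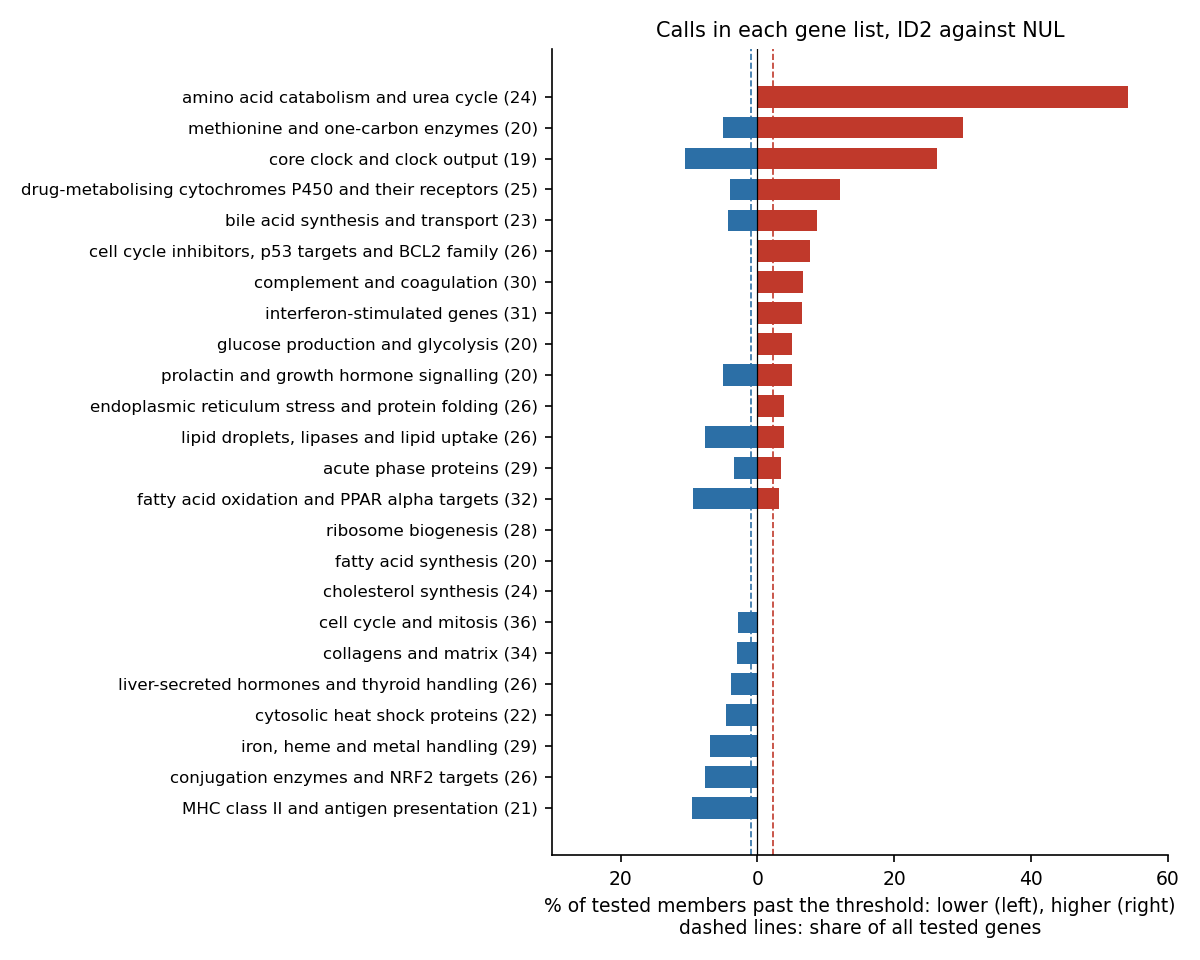
Share of the tested members of each of 24 gene lists that passed the adjusted p threshold, higher at ID2 to the right and lower to the left, in percent; the number of tested members stands in brackets and the dashed lines mark the shares among all genes (2.32% higher, 0.919% lower). The amino acid list has the longest bar, 13 of 24 members higher.

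Clock genes differed between the groups in both directions. Of the 19 measured genes of the core clock and its direct outputs, Tef, Cry2, Dbp, Per3 and Ciart rose and Cry1 and Arntl fell, beside shares of 2.32% and 0.919% among all genes. The median log2 fold change of the list was 0.59, against -0.017 for all tested genes. The promoters of 4 of the called members are shown because the clock acts on 2 short sequences: CACGTG, the E-box bound by CLOCK and BMAL1, and TTATGTAA or TTACGTAA, the D-box bound by DBP and TEF. Each line gives the 250 bases before the RefSeq start on build GRCm38.p6, 5′ to 3′ on the strand of the gene, with E-boxes and D-boxes in capitals. Ciart lies at chr3:95882229-95882478 on the minus strand, Per3 at chr4:151044666-151044915 on the minus strand, Tef at chr15:81802423-81802672 on the plus strand and Cry1 at chr10:85185055-85185304 on the minus strand.
Ciart: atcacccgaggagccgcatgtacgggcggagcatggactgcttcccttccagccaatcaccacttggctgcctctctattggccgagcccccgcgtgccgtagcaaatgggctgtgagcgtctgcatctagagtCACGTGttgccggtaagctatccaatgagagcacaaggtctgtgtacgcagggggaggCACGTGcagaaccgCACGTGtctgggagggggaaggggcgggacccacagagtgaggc
Per3: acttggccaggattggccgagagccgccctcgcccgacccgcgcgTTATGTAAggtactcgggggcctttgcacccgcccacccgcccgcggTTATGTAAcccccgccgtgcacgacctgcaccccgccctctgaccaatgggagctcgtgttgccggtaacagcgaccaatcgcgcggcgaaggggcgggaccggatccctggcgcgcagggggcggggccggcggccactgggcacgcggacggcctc
Tef: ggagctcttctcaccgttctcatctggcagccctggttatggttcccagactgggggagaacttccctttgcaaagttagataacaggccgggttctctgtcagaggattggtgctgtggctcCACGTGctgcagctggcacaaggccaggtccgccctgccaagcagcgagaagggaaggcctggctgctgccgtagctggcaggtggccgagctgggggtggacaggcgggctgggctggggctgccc
Cry1: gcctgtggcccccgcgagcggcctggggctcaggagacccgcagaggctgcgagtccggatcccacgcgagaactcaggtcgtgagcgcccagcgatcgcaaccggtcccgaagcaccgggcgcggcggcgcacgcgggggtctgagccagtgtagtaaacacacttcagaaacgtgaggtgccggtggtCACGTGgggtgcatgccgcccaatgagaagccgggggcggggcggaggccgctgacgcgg
The Ciart promoter holds 3 E-boxes, starting 116, 58 and 44 bases before the start, and the Per3 promoter holds 2 D-boxes, at 205 and 158 bases. The Tef window shown has 1 E-box at 127 bases and Cry1 has 1 at 60 bases. RefSeq gives Tef 2 starts, of which the first is shown, and the window of the other (chr15:81811164-81811413, plus strand) has 1 E-box at 138 bases. Both motifs were searched on both strands and do not overlap each other here. An E-box was found in 5 of the 16 clock genes with a promoter in the table, in 9.43% of the 11701 tested genes with one, in 6.99% of the genes called higher and in 7.56% of those called lower. For the D-box these shares were 1 of 16, 0.897%, 1.05% and 2.52%. The 4 promoters shown are those of the called members with a motif. Both motifs are absent from the windows of the other called members, Dbp, Cry2 and Arntl.

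Dbp, a transcription factor that carries the clock's rhythm to metabolic genes, had the largest rise of the named genes outside the pancreatic ones. It stood at 0.772, 0.594, 2.66 and 2.69 CPM in the NUL libraries and at 12.1, 15.2 and 42.8 CPM in ID2_224, ID2_31 and ID2_39, and its log2 fold change was 3.80 with a standard error of 0.84 (adjusted p = 0.0149). The groups did not overlap, and ID2_39 was the highest library. Tef, a close relative of Dbp, was at 22.9, 24.2, 28.6 and 25.3 CPM in NUL and at 45.7, 57.8 and 80.2 CPM in ID2 (1.28 ± 0.23, adjusted p = 0.00263). Cry2, a cryptochrome repressor, was at 26.3, 24.7, 24 and 30.5 CPM in NUL and at 37.4, 40.4 and 41.3 CPM in ID2 (0.59 ± 0.12, adjusted p = 0.00604). Tef and Cry2 kept their calls without each of the 7 libraries in turn. Per3, a period gene, rose by 1.89 ± 0.47 (adjusted p = 0.0287) with 4.5, 5.07 and 12.3 CPM in ID2 against 1.55 to 2.67 in NUL. Ciart, a repressor of CLOCK and BMAL1, rose by 2.73 ± 0.72 (adjusted p = 0.032) from 0.137 to 0.289 CPM in NUL to 0.444, 0.689 and 2.49 CPM in ID2. In the opposite direction, Arntl was at 35.9, 33.9, 30.7 and 30.6 CPM in NUL and at 26.8, 25.8 and 14.1 CPM in ID2 (-0.56 ± 0.16, adjusted p = 0.0444). Cry1, the other cryptochrome, was at 20.7 to 41.9 CPM in NUL and at 22.3, 15.5 and 10.5 CPM in ID2, so that ID2_224 lay within the NUL range (-0.95 ± 0.25, adjusted p = 0.0385). In each of these 7 genes ID2_39 was the farthest of the ID2 libraries from NUL.

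The calls of 5 of these clock genes depend on single libraries. Dbp lost its call without ID2_39 (3.03, adjusted p = 0.111) and without NUL_221 (adjusted p = 0.0523). Per3 lost it without ID2_39 (adjusted p = 0.241), NUL_220, NUL_221 or NUL_227 (0.0696 to 0.0778), and Ciart without ID2_39 (0.36), NUL_220, NUL_221 or NUL_226 (0.0741 to 0.0903). Arntl lost it without ID2_39 (0.29) and without each NUL library (0.0625 to 0.0968), and Cry1 without ID2_39 (0.221), ID2_31 (0.134), NUL_220, NUL_221 or NUL_227 (0.0512 to 0.113). The remaining members gave values short of the threshold. Among them the repressors Nr1d1 and Nr1d2 stood at 36.9 to 59.3 and 38.4 to 48.4 CPM in ID2 against 5.46 to 38 and 8.38 to 36.7 CPM in NUL (adjusted p = 0.316 and 0.126). Npas2, a partner of BMAL1, was at 8.3, 7.71 and 1.94 CPM in ID2 against 8.86 to 17.8 in NUL (adjusted p = 0.114). Per1 ranged from 4.95 to 32.3 CPM in ID2 and Hlf had a log2 fold change of 0.01.

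**Figure D2:**
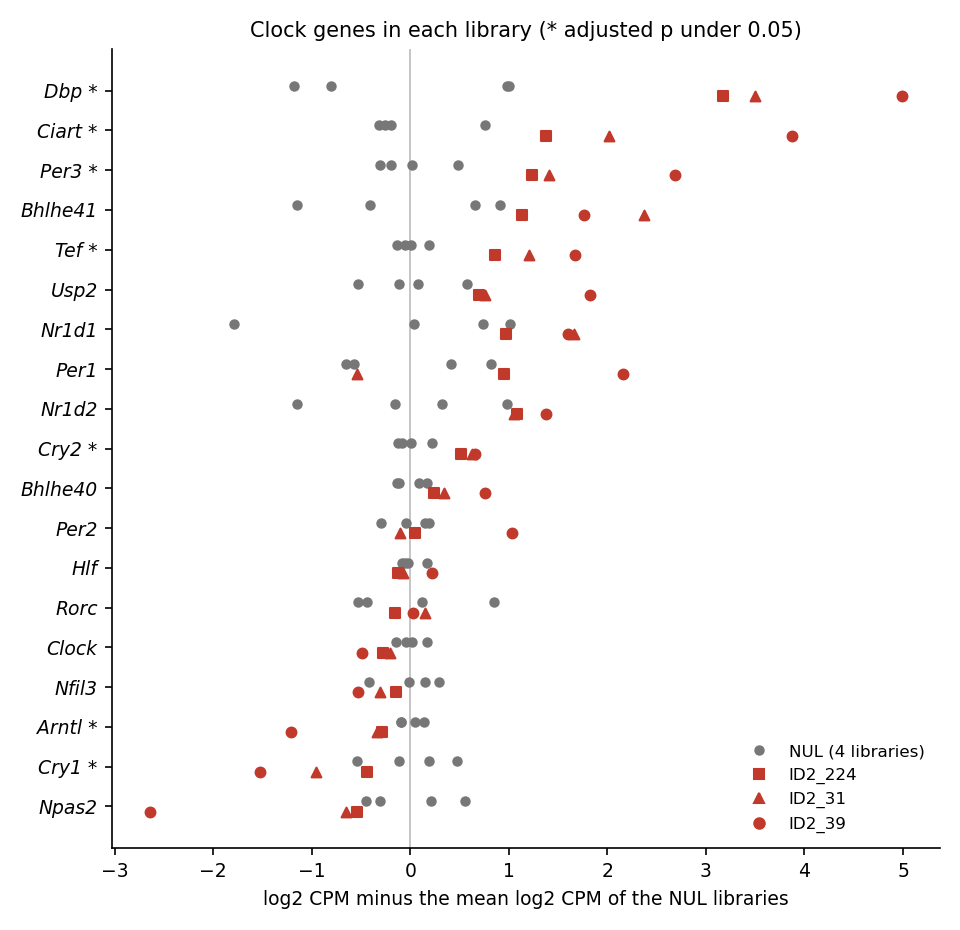
Level of the 19 clock genes in each library, as log2 CPM minus the mean log2 CPM of the 4 NUL libraries; grey points are NUL libraries, red symbols the 3 ID2 libraries, and an asterisk marks an adjusted p under 0.05. ID2_39 (circles) is the farthest of the ID2 libraries from NUL in all 7 called genes, and in Dbp the ID2 libraries stand at 12.1, 15.2 and 42.8 CPM.

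Because the labels give no time of day, the level of the clock was set beside every other result as a single score, the first principal component of the 19 clock genes over all 27 libraries, which holds 61.3% of their variance. The score was 2.627, 3.395 and 7.028 in ID2_224, ID2_31 and ID2_39 and -2.157, -3.532, -0.369 and -0.459 in NUL_220, NUL_221, NUL_226 and NUL_227, so the groups did not overlap. With this score as a covariate, edgeR called 27 genes (0.164% of those tested), 23 of them among the 532, and 530 of the 532 kept their sign. In the clock list itself 0 of 19 were then called, with 2 at an unadjusted p under 0.05. Because the score is built from these 19 genes, that count cannot serve as a test of them. With title number under or over 200 as a covariate, 108 genes (0.657%) were called, 105 of them among the 532. Of the 19 clock genes 0 were called in that fit, with 8 at an unadjusted p under 0.05. The score and the group move together. A difference in time of collection and a response to weaning therefore cannot be told apart for any gene, whether or not it keeps its call with the covariate.

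Enzymes of amino acid breakdown and of the urea cycle rose together. Of 24 measured members, 13 rose, against 2.32% of all genes, and 23 of 24 had a positive log2 fold change, with a median of 0.50 against -0.017 for all genes. Agxt, which converts alanine and glyoxylate to pyruvate and glycine, was at 589.6, 472, 439 and 527 CPM in NUL and at 846, 854 and 870.3 CPM in ID2 (0.76 ± 0.12, adjusted p = 5.30e-04). Got1, the cytosolic aspartate aminotransferase, was at 435, 337, 332 and 426 CPM in NUL and at 694, 740.1 and 781 CPM in ID2 (0.95 ± 0.14, adjusted p = 2.52e-04). Hal, the first enzyme of histidine breakdown, was at 312, 237, 240.2 and 289 CPM in NUL and at 513, 429 and 497 CPM in ID2 (0.83 ± 0.12, adjusted p = 2.52e-04). In these enzymes the ID2 libraries lay close together and all above the NUL range. Aass, the first enzyme of lysine breakdown, rose from between 163 and 242 CPM to between 304 and 349 CPM (0.66 ± 0.11, adjusted p = 7.57e-04). Hpd, an enzyme of tyrosine breakdown, rose from between 1639.7 and 2079 CPM to between 2457 and 3007 CPM (0.65 ± 0.11, adjusted p = 7.66e-04). Agxt, Got1, Hal, Aass and Hpd kept their calls without each of the 7 libraries in turn.

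Further called members, named after their values were seen, were Gpt, Ass1, Asl, Gls2, Fah, Cps1 and Sds. They span the urea cycle and the breakdown of alanine, glutamine, tyrosine and serine. Asl, which splits argininosuccinate, was at 604, 677 and 1052 CPM in ID2 against 225 to 417 in NUL (1.17 ± 0.23, adjusted p = 0.0057). Ass1, which makes argininosuccinate, was at 3436, 4094 and 3729 CPM against 1732 to 2925 (0.67 ± 0.14, adjusted p = 0.00505). Cps1, the entry enzyme of the urea cycle, was at 5729.7, 5907 and 6846 CPM against 3172 to 4945 (0.62 ± 0.16, adjusted p = 0.0322). Gpt and Ass1 kept their calls without each library in turn. Asl lost its call without ID2_39 (0.0684) and Gls2 without ID2_31 (0.0503). Fah lost it without ID2_31, ID2_39, NUL_226 or NUL_227 (0.0592 to 0.107), Cps1 without any ID2 library, NUL_221 or NUL_226 (0.0541 to 0.178) and Sds without any library but NUL_227 (0.0614 to 0.265). Glul, the glutamine synthetase, was the only member with a negative value (-0.34 ± 0.11, adjusted p = 0.0957). Tat, the tyrosine aminotransferase, was at 2242, 1527 and 2446 CPM in ID2 against 958 to 1363 in NUL and did not pass (adjusted p = 0.0803).

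With the clock score as a covariate 1 of the 24 amino acid genes was called, Agxt (0.87, adjusted p = 0.0229), against 0.164% of all genes. The median of the list was then 0.39, 22 of 24 members had a positive value and 12 were at an unadjusted p under 0.05. With the title number in the model 7 were called, without ID2_39 8 and without ID2_31 9, at medians of 0.54, 0.49 and 0.50. The summed hepatocyte markers, mostly Alb, moved in the same direction as this list, as given above. Gene by gene, their median log2 fold change was 0.12, 7 of 12 were positive and 1 was called. Cps1 and Tat belong to both lists, and the part of the hepatocyte markers in the result was not tested.

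**Figure D3:**
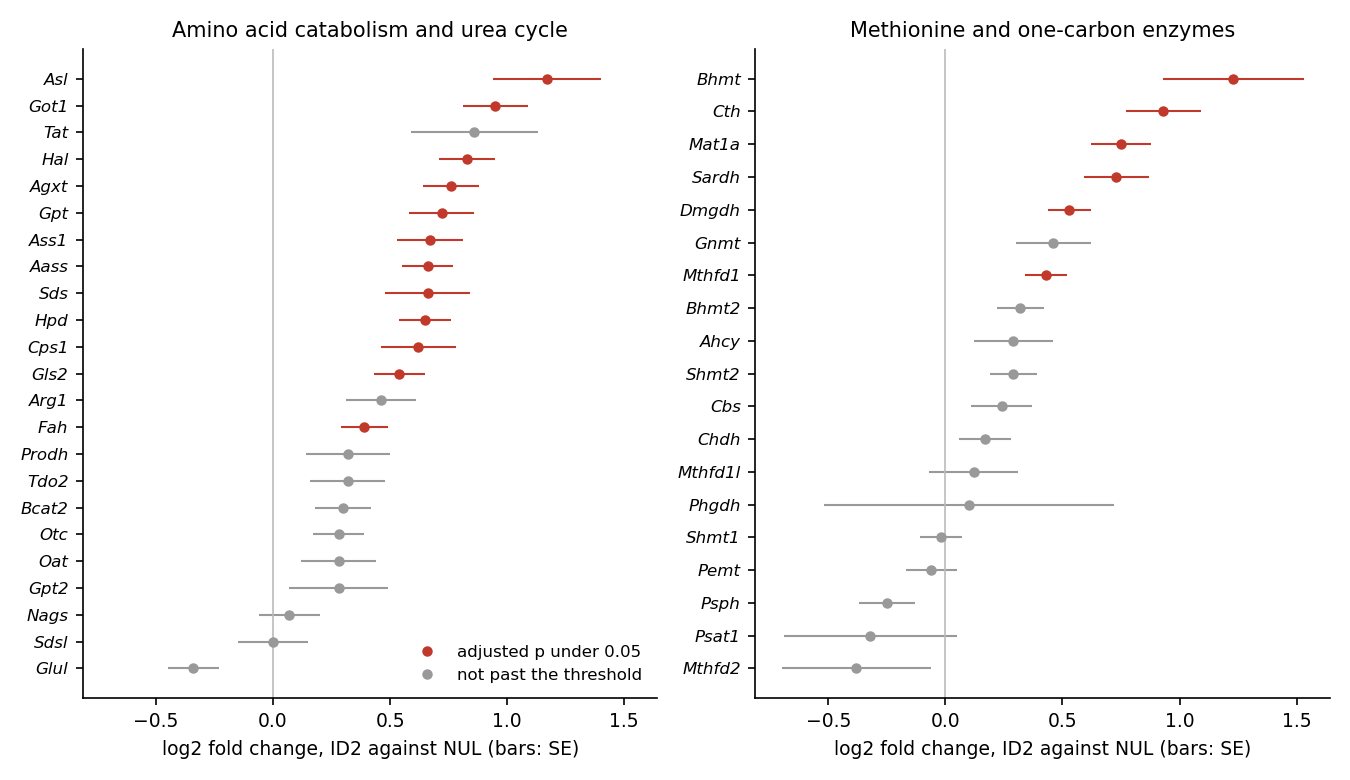
Log2 fold change of ID2 against NUL with its standard error for genes of amino acid breakdown and the urea cycle (left) and of methionine and one-carbon metabolism (right); red points passed the adjusted p threshold and grey points did not. All red points shown lie to the right of 0, from 0.39 for Fah to 1.17 for Asl on the left and from 0.43 for Mthfd1 to 1.23 for Bhmt on the right. Some members are not shown, among them the 1 called fall of the methionine and one-carbon list.

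In methionine and one-carbon metabolism 6 of 20 measured members rose (30%, against 2.32% of all genes) and 1 fell (5%, against 0.919%), with a median of 0.27. Cth, which makes cysteine from cystathionine, was at 384, 289 and 288 CPM in NUL_220, NUL_221 and NUL_227, lower still in NUL_226, and at 539.7, 471 and 650.3 CPM in ID2 (0.93 ± 0.16, adjusted p = 0.00104). Mat1a, the liver enzyme that makes S-adenosylmethionine, was at 2557, 2239, 2025 and 2594 CPM in NUL and at 3746, 3333 and 4804 CPM in ID2 (0.75 ± 0.13, adjusted p = 0.0011). Sardh and Dmgdh, the mitochondrial enzymes that oxidise sarcosine and dimethylglycine, rose by 0.73 ± 0.14 (adjusted p = 0.00248) and 0.53 ± 0.09 (adjusted p = 0.00154). These 4 genes kept their calls without each library in turn, and in each the ID2 libraries all lay above the NUL libraries. Mthfd1, a cytosolic folate enzyme, rose by 0.43 ± 0.09 (adjusted p = 0.00698) and lost its call without ID2_39 (0.0516). Bhmt, which remethylates homocysteine with betaine and is named after its values were seen, was at 6243, 6789 and 7949.9 CPM in ID2 against 1813 to 3492 in NUL (1.23 ± 0.30, adjusted p = 0.0236) and lost its call without ID2_39 (0.13), ID2_31 (0.0652) or NUL_226 (0.0749). With the clock score as a covariate 0 of the 20 were called, with 10 at an unadjusted p under 0.05 and a median of 0.21. With the title number in the model 5 were called.

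Among genes of fatty acid oxidation and of PPAR alpha, the nuclear receptor that drives it in fasting, 3 of 32 measured members fell (9.38%, against 0.919% of all genes) and 1 rose (3.12%, against 2.32%), with a median of -0.16. Eci3, an isomerase of unsaturated fatty acid breakdown (chr13:34946614-34963810, minus strand, GRCm38), was at 1.42, 1.28, 0.827 and 1.03 CPM in NUL and at 7.29, 11.7 and 7.28 CPM in ID2. Its log2 fold change was 2.93 ± 0.36 (adjusted p = 9.67e-05), and it stayed called without each library in turn, with the clock score (3.69, adjusted p = 9.93e-04) and with the title number in the model (adjusted p = 0.00183). The expected counts of Eci3 were not whole in 21 of the 27 libraries, so some of its reads were shared with other genes by estimate. Acot1, a PPAR alpha target that releases fatty acids from acyl-CoA, was at 8.54, 15.7, 12.8 and 10.2 CPM in NUL and at 2.06, 2.04 and 1.54 CPM in ID2 (-2.65 ± 0.52, adjusted p = 0.00634). Pdk4, which inhibits pyruvate dehydrogenase in fasting, was at 7.75, 10.4 and 6.74 CPM in ID2 against 11.6 to 24.5 in NUL (-1.26 ± 0.31, adjusted p = 0.0271). Acaa1b, a peroxisomal thiolase, fell by 0.66 (SE 0.18, adjusted p = 0.0429). Acot1 lost its call without ID2_39 (0.0537), Pdk4 without ID2_39 (0.157), ID2_224, NUL_221 or NUL_227 (0.0625 to 0.0991), and Acaa1b without any library but ID2_224 (0.0611 to 0.275). The counts of Acot1 and Acaa1b were not whole in 26 libraries each.

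Lipid uptake and export genes held few calls, in both directions. Of 26 measured members of the lipid droplet, lipase and lipid uptake list, Lpl rose (3.85%, against 2.32% of all genes). Fabp1 and Mttp fell (7.69%, against 0.919%). A positive value was found in 14 of the 26, and the median was 0.09. Fabp1, the abundant fatty acid binding protein of the hepatocyte, was at 1919.6, 2288, 2139.8 and 1884 CPM in NUL and at 1093, 1063 and 998 CPM in ID2 (-0.97 ± 0.15, adjusted p = 5.49e-04). The ID2 values lay within a narrow range well below all NUL values, and the call held without each library in turn. With the clock score as a covariate the log2 fold change was -0.50 (adjusted p = 0.266). Mttp, which loads lipid onto apolipoprotein B, was at or below 228 CPM in the ID2 libraries against 262 to 334 (-0.35 ± 0.08, adjusted p = 0.0174). Lpl, the lipase that takes fatty acids from circulating triglyceride, was at 33, 41.9 and 27.7 CPM against 7.54 to 21.8 (1.18 ± 0.30, adjusted p = 0.0353). Mttp lost its call without any ID2 library or NUL_227 (0.0518 to 0.106) and Lpl without any ID2 library, NUL_220 or NUL_221 (0.0657 to 0.153). In the cholesterol synthesis list edgeR called 0 of 24 members, with 2 at an unadjusted p under 0.05, and DESeq2 called 0. In the fatty acid synthesis list edgeR called 0 of 20, with 2 at an unadjusted p under 0.05, and DESeq2 called 0. Dhcr7, the last enzyme of cholesterol synthesis, was at 73.6, 116 and 109 CPM in ID2 against 47 to 82.8 in NUL (adjusted p = 0.236), and Me1, which supplies NADPH for lipogenesis, was at 92.3, 127 and 94.4 CPM against 140.3 to 195 (adjusted p = 0.176). Of the glucose production and glycolysis list, 1 of 20 members rose (5%, against 2.32% of all genes). This was Ppargc1a, a coactivator of gluconeogenic and mitochondrial genes, at 11.9, 11.5 and 11.4 CPM against 4.34 to 7.99 (1.03 ± 0.24, adjusted p = 0.0142). It lost its call without ID2_39 (0.0568).

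Outside these lists the largest rises, by the rule for named genes, were in genes of varied function. Rdh16f2, of the retinol dehydrogenase family (chr10:127866474-127877317, plus strand), was at 38.1, 18.6, 21.9 and 29.8 CPM in NUL and at 113, 102 and 118 CPM in ID2 (2.03 ± 0.23, adjusted p = 5.43e-05). Gpc3, a heparan sulphate proteoglycan of the fetal liver surface (chrX:52272426-52613950, minus strand), was at 2.33, 2.65, 6.97 and 7.3 CPM in NUL and at 18.8, 20.9 and 29.7 CPM in ID2 (2.27 ± 0.30, adjusted p = 2.52e-04). The rule admits only genes whose groups do not overlap, so the separation of these 2 genes was given in advance. Both kept their calls without each library in turn. Rdh16f2 also stayed called with the clock score as a covariate (2.18, adjusted p = 0.011), while Gpc3 did not (1.67, adjusted p = 0.0822). Slc16a5, a monocarboxylate transporter, rose by 1.60 ± 0.24 (adjusted p = 5.79e-04), Ifi27l2b, of an interferon-inducible family, by 2.04 ± 0.29 (2.77e-04), Dct, a melanin synthesis enzyme, by 2.04 ± 0.41 (0.00767) and Rap1gap2, a regulator of the RAP1 GTPase, by 1.35 ± 0.21 (5.49e-04). These 4 kept their calls without each library in turn. Upp2, a uridine phosphorylase, rose by 1.70 ± 0.37 (0.0129), Slc37a1, a glucose 6-phosphate exchanger, by 1.54 ± 0.32 (0.00693), and Il33, an alarmin cytokine, by 1.47 ± 0.27 (0.00293). Each of these 3 lost its call without ID2_39 (0.0989, 0.0888 and 0.0709). Gnat1, the transducin subunit of rods, was at 28.2 CPM in ID2_39 and at 5.59 and 6.87 CPM in the other ID2 libraries, against 1.78 to 3.64 in NUL (2.24 ± 0.57, adjusted p = 0.0352). It lost its call without ID2_39 (1.12, adjusted p = 0.39) and without any single NUL library (0.0633 to 0.106). Neb, a giant muscle protein, rose by 1.43 ± 0.29 (0.00714) and lost its call without ID2_31 (0.0672).

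**Figure D4:**
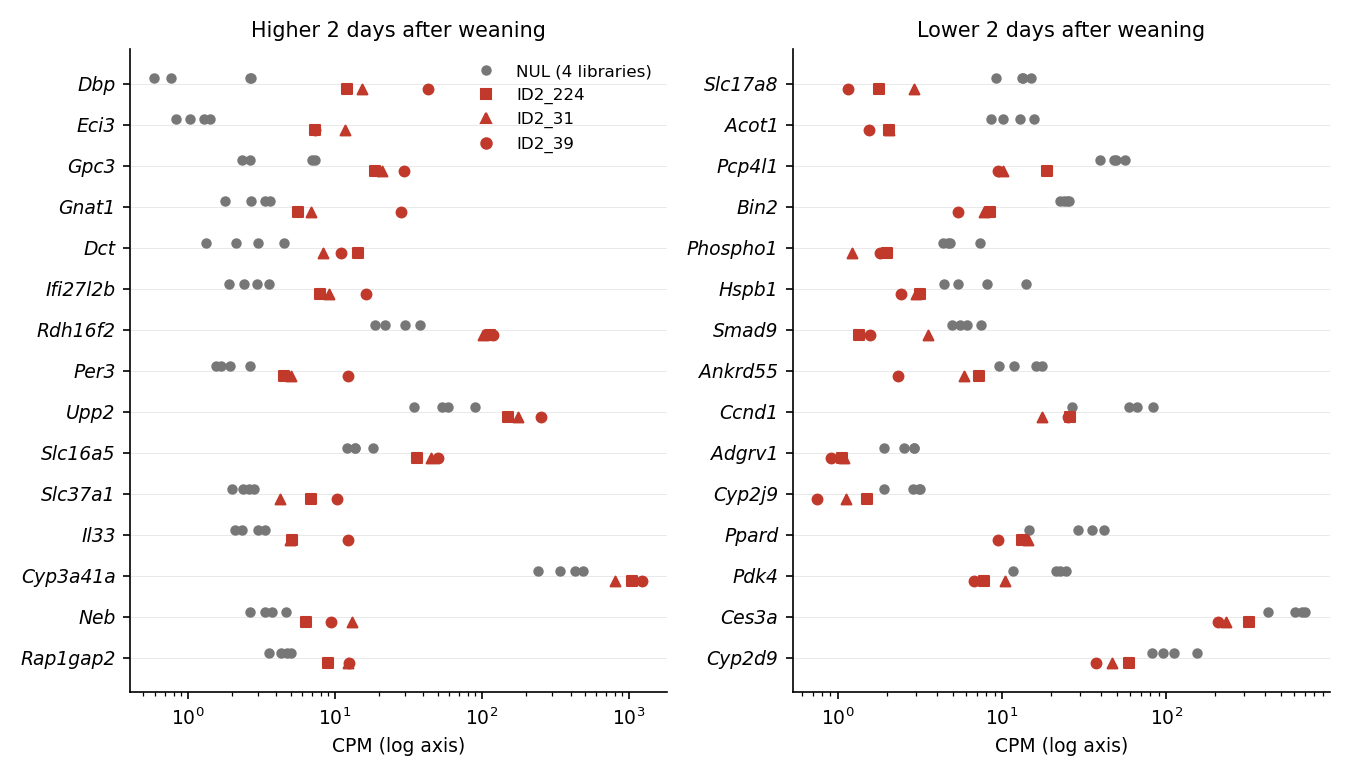
CPM on a log axis in each library for the 15 genes with the largest rises (left) and the 15 with the largest falls (right) among those the naming rule admits; grey points are the 4 NUL libraries and red symbols the 3 ID2 libraries. No gene overlaps between the groups, which the rule requires, and ID2_39 stands far to the right of the other ID2 libraries for Dbp and Gnat1.

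Among the falls, Slc17a8, a vesicular glutamate transporter (chr10:89574020-89621253, minus strand), had the largest fold change of the named genes. It was at 9.2, 13.5, 15 and 13.3 CPM in NUL and at 1.79, 2.9 and 1.15 CPM in ID2 (-2.69 ± 0.30, adjusted p = 4.15e-05). The call held without each library in turn, with the clock score (-2.56, adjusted p = 0.011) and with the title number (-2.74, adjusted p = 0.00137). Bin2, a membrane-shaping protein, was at 22.4, 23.7, 24.9 and 25.5 CPM in NUL and at 8.49, 7.8 and 5.38 CPM in ID2 (-1.74 ± 0.26, adjusted p = 5.63e-04). Phospho1, a phosphatase of phosphocholine and phosphoethanolamine, fell by 1.68 (SE 0.29, adjusted p = 0.00156), Adgrv1, an adhesion receptor, by 1.32 (SE 0.21, adjusted p = 5.18e-04) and Cyp2d9, a cytochrome P450 more abundant in males, by 1.21 (SE 0.18, adjusted p = 5.18e-04). These 3 and Bin2 kept their calls without each library in turn. Pcp4l1 was at 18.8, 10.1 and 9.41 CPM against 39.4 to 56.3 (-1.92 ± 0.41, adjusted p = 0.0105) and lost its call without ID2_39 (0.0921) or ID2_31 (0.0683). Ces3a, a carboxylesterase, was at 208 to 321 CPM against 420.3 to 706 (-1.25 ± 0.27, adjusted p = 0.0112) and lost it without the same libraries (0.0994 and 0.0654). Smad9, a mediator of bone morphogenetic protein signals, fell by 1.48 (SE 0.30, adjusted p = 0.00652), Ppard, a nuclear receptor of fatty acids, by 1.29 (SE 0.28, adjusted p = 0.0118) and Cyp2j9 by 1.29 (SE 0.25, adjusted p = 0.00392), and each lost its call without ID2_39 (0.0657, 0.106 and 0.0506). Ankrd55 fell by 1.41 (SE 0.34, adjusted p = 0.0263) and lost its call without ID2_39, ID2_31, NUL_226 or NUL_227 (0.0611 to 0.149).

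Among 25 measured drug-metabolising cytochromes P450 and their receptors, Cyp3a41a, Cyp2a4 and Cyp2b9 rose (12%, against 2.32% of all genes). Cyp2c38 fell (4%, against 0.919%), and the median was 0.16. Cyp3a41a and Cyp2a4 are more abundant in female than in male mouse liver. Cyp3a41a was at 430.5, 486 and 337 CPM in NUL_220, NUL_221 and NUL_227, lower still in NUL_226, and at 1053, 805 and 1233 CPM in ID2 (1.46 ± 0.26, adjusted p = 0.00278). Cyp2a4 was at 545, 426, 621 and 756 CPM in NUL and at 1140.2, 967 and 1608 CPM in ID2 (1.08 ± 0.17, adjusted p = 6.07e-04). Both kept their calls without each library in turn, and Cyp3a41a did so with the clock score as well (2.07, adjusted p = 0.0173). The P450 families hold near-identical copies, and the counts of Cyp3a41a and Cyp2a4 were not whole in 26 and 27 libraries, so the split between copies is uncertain. Cyp2b9 rose by 0.47 ± 0.12 (adjusted p = 0.0203) and Cyp2c38 fell by 0.64 (SE 0.14, adjusted p = 0.00994). Cyp2b9 lost its call without ID2_224, NUL_226 or NUL_227 (0.0538 to 0.146) and Cyp2c38 without ID2_39 (0.131). In the bile acid list, 2 of 23 members rose (8.7%, against 2.32% of all genes) and 1 fell (4.35%, against 0.919%). Slc51b, a subunit of the basolateral bile acid exporter, was at 3.36, 1.83 and 2.08 CPM against 0.748 to 1.31 (1.29 ± 0.25, adjusted p = 0.00373) and kept its call without each library in turn. Klb, the co-receptor for FGF15 and FGF21, rose by 0.47 ± 0.12 (adjusted p = 0.0353) and Cyp27a1, the sterol hydroxylase of the acidic bile acid pathway, fell by 0.49 (SE 0.13, adjusted p = 0.0323). Klb lost its call without any ID2 library, NUL_220 or NUL_221 (0.0519 to 0.178) and Cyp27a1 without any ID2 library, NUL_220 or NUL_227 (0.0526 to 0.229).

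Of hormone signalling genes, Prlr, the prolactin receptor, was at 453, 443 and 539 CPM in ID2 against 362, 301, 397 and 341 in NUL (0.45 ± 0.10, adjusted p = 0.0101), and Stat5a, a transcription factor downstream of it, was at 15.5, 15 and 12.7 CPM against 17.4 to 23.8 (-0.51 ± 0.14, adjusted p = 0.0362). They were the called members among 20 of the prolactin and growth hormone list (5% higher and 5% lower, against 2.32% and 0.919% of all genes), whose median was 0.02. Prlr lost its call without ID2_39 (0.134), and Stat5a without any library but NUL_226 (0.0502 to 0.218). Inhba, which encodes the activin A subunit, was the called member among 26 genes of secreted hormones and thyroid hormone handling, at 5.21, 6.41 and 5.79 CPM against 9.56 to 20.1 (-1.16 ± 0.31, adjusted p = 0.0402). It lost its call without any ID2 library, NUL_221 or NUL_226 (0.061 to 0.152). Fgf21, the fasting hormone of the liver, is given here after its values were seen: it stood at 0.349, 0.455 and 0.749 CPM in ID2 and at 0.976, 3.43, 2.98 and 1.76 CPM in NUL, and did not pass (-2.16 ± 0.65, adjusted p = 0.07).

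Of 21 measured members of the list of MHC class II and antigen presentation, H2-Eb1 and Cd74 fell, beside 0.919% of all genes. A positive value was found in 10 of the 21, and the median was -0.13, or 0.06 without ID2_31. H2-Eb1, a class II beta chain, was at 16.7, 12.4, 17.9 and 15 CPM in NUL and at 7.7, 7.16 and 5.62 CPM in ID2 (-1.18 ± 0.28, adjusted p = 0.0201). Cd74, the invariant chain, was at 86.3, 59.9, 87.2 and 72.1 CPM in NUL and at 50.5, 38.2 and 30.9 CPM in ID2 (-0.94 ± 0.25, adjusted p = 0.043). H2-Eb1 lost its call without ID2_31, ID2_39 or NUL_226 (0.0578 to 0.139) and Cd74 without either of these ID2 libraries, NUL_220, NUL_226 or NUL_227 (0.0673 to 0.227). The 18 markers of Kupffer cells and macrophages, which carry class II, summed to between 542 and 661 CPM in ID2 and to between 601 and 733 in NUL, with Lyz2 the called member (-0.44 ± 0.12, adjusted p = 0.0309). The 10 tested B and plasma cell markers belong to a list that summed to 22.3 to 30.3 CPM in ID2 and 16.7 to 30.7 CPM in NUL. Markers of T and NK cells summed to 4.27 to 6.71 CPM in ID2 and 5.58 to 8.28 CPM in NUL, with Cd3e the called member of 14 (-1.66 ± 0.47, adjusted p = 0.0485). Lyz2 lost its call without any ID2 library, NUL_226 or NUL_227 (0.0669 to 0.186) and Cd3e without any library but NUL_226 (0.0673 to 0.242). The part of these cells in the MHC class II values was not tested.

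Interferon-stimulated genes had a median of 0.43, and 27 of 31 had a positive value, but 2 passed the test, both higher (6.45%, against 2.32% of all genes). The median was 0.25 without ID2_39, 0.06 with the clock score and 0.24 with the title number in the model. Ifit3 was at 12.5, 6.81, 9.16 and 10.6 CPM in NUL and at 19.3 and 15 CPM in ID2_224 and ID2_31 and higher in ID2_39 (1.13 ± 0.25, adjusted p = 0.0137), and Ifit3b at 2.13 to 5.22 CPM in NUL and 9.22, 6.07 and 12.2 CPM in ID2 (1.11 ± 0.25, adjusted p = 0.0123). ID2_39 was the highest library for both. These genes are near copies whose counts were not whole in 27 of 27 libraries, and both lost their calls without ID2_39 (0.15 and 0.141), as did Ifit3 without NUL_221 (0.0503). In the acute phase list, Serpina3n, a secreted protease inhibitor, rose by 0.55 ± 0.12 (adjusted p = 0.0102) and Il1r1, an interleukin 1 receptor, fell by 0.62 (SE 0.17, adjusted p = 0.0425), among 29 members with a median of 0.33. That median was -0.00 without ID2_39, 0.05 with the title number in the model and 0.49 without ID2_31. Of 30 complement and coagulation genes, F7, which encodes coagulation factor VII, rose by 0.49 ± 0.11 (adjusted p = 0.0116) and C4b, a complement component, by 0.56 ± 0.16 (adjusted p = 0.0482). Without ID2_39 the adjusted p was 0.182 for Serpina3n, 0.112 for Il1r1, 0.117 for F7 and 0.388 for C4b. F7 also lost its call without NUL_226 (0.0547), C4b without ID2_224, NUL_220, NUL_226 or NUL_227 (0.0717 to 0.133), and Il1r1 without any library but NUL_220 (0.0777 to 0.182).

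Stress and growth genes gave few calls, beside 2.32% of all genes called higher and 0.919% called lower. In the list of endoplasmic reticulum stress and folding genes the median was -0.37, the lowest of the process lists, and 23 of 26 members had a negative value, yet the called member was Trib3, a pseudokinase of the stress response, which rose from between 3.17 and 5.14 CPM to 8.84, 6.88 and 5.83 CPM (0.81 ± 0.21, adjusted p = 0.0266). Of 22 cytosolic heat shock genes, whose median was -0.32, Hspb1 fell, from 5.39, 14, 4.45 and 8.15 CPM to 3.17, 2.98 and 2.41 CPM (-1.48 ± 0.34, adjusted p = 0.0154). For 28 genes of ribosome biogenesis the median was -0.17, edgeR called 0 with 6 at an unadjusted p under 0.05, and DESeq2 called 1. Nop56, a nucleolar protein, was at 18, 17.3 and 20.3 CPM in ID2 against 24 to 28.7 in NUL (adjusted p = 0.076). Ccnd1, which encodes cyclin D1, was the called member among 36 cell cycle genes, at 25.8, 17.6 and 25.2 CPM against 66.6, 26.8, 59.7 and 83.7 (-1.37 ± 0.36, adjusted p = 0.0425). The cyclin-dependent kinase inhibitors Cdkn2c and Cdkn1c rose by 0.69 ± 0.17 (adjusted p = 0.0224) and 0.61 ± 0.17 (adjusted p = 0.0397), the called members among 26. Without ID2_39 the adjusted p was 0.11 for Hspb1, 0.141 for Ccnd1, 0.0728 for Cdkn2c and 0.0644 for Cdkn1c, and without ID2_224 it was 0.161 for Trib3. Hspb1 also lost its call without ID2_31 or NUL_221, Trib3 without ID2_31 or any NUL library but NUL_227, Ccnd1 without any library but NUL_221, Cdkn2c without any library but ID2_31 or NUL_226, and Cdkn1c without any library but NUL_220 or NUL_226. The adjusted p in these fits ran from 0.052 to 0.227.

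Other lists held falls of single genes, beside 0.919% of all genes called lower. Slc30a10, a manganese exporter, was at 59.1, 58.1 and 53 CPM in ID2 against 86.4, 91.5, 78.2 and 98 in NUL (-0.64 ± 0.12, adjusted p = 0.00248) and kept its call without each library in turn. Ftl1, the ferritin light chain, fell by 0.40 (SE 0.11, adjusted p = 0.046), the other called member among 29 iron and metal genes. Gclc, of glutathione synthesis, fell by 0.64 (SE 0.17, adjusted p = 0.0417) and Gstp1, a glutathione transferase, by 0.47 (SE 0.13, adjusted p = 0.0471), among 26 conjugation and NRF2 genes. Postn, a matrix protein, fell by 0.55 (SE 0.16, adjusted p = 0.0467), the called member among 34 matrix genes. Ftl1 lost its call without any library but NUL_227 (0.057 to 0.195), Gclc without any library but ID2_224 and NUL_221 (0.0649 to 0.248), Gstp1 without every library in turn (0.0769 to 0.163) and Postn without any library but NUL_227 (0.0524 to 0.169).

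Of the 532 called genes, 116 (102 higher, 14 lower) passed in all 7 fits that each left out 1 library. Of these, 16 also passed both in the fit with the clock score and in the fit with the title number, among them Sdc1, Slc17a8, Rdh16f2, Eci3, Acad12, Gm33543, Vtcn1, Agxt, Dntt, Gpd2, Lyrm2, Echdc3, Cyp3a41a, Dct and Htra4. They are named after their values were seen. Sdc1, the main heparan sulphate proteoglycan of hepatocytes, was at 340.4, 347, 347 and 386 CPM in NUL and at 690.5, 642 and 861 CPM in ID2 (1.04 ± 0.12, adjusted p = 3.91e-05). Gpd2, the mitochondrial glycerol 3-phosphate dehydrogenase, was at 66.1, 42.1, 50.4 and 65.4 CPM in NUL and at 32.7, 28.4 and 32.1 CPM in ID2, and with Slc17a8 it was 1 of the 2 falls. Acad12, of the acyl-CoA dehydrogenase family, was at 19.4 to 22.9 CPM in NUL and at 36.8, 38.8 and 38.7 CPM in ID2. In each of these 3 genes all ID2 libraries lay on 1 side of all NUL libraries.

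The position of ID2 among the other stages differed between genes. Slc17a8 was at 5.1 ± 0.9 CPM (SD, n = 3) in LAC, 1.95 ± 0.882 (n = 3) in ID2, 3.64 ± 0.686 (n = 4) in ID4, 7.74 ± 1.95 (n = 6) in ID6, 11 ± 2.4 (n = 3) in ID8 and 8.68 ± 2.44 (n = 4) in REG, against 12.7 ± 2.48 (n = 4) in NUL. Gpc3 was at 29.6 ± 6.05 CPM in LAC, 23.2 ± 5.8 in ID2, 10.6 ± 2.34 in ID4, 8.49 ± 1.18 in ID6, 12.6 ± 2.25 in ID8 and 5.97 ± 0.773 in REG, against 4.81 ± 2.69 in NUL. In both genes the LAC libraries lay outside the NUL range, and for Gpc3 the LAC and ID2 libraries overlapped. Fabp1, by contrast, was within or above the NUL range in the LAC libraries and below it in all ID2, ID4 and ID6 libraries. ID8_14 and REG_214 also lay below that range, at 1619.8 and 1699 CPM. Agxt was at 307 ± 11.5 CPM in LAC, 857 ± 12.4 in ID2, 685 ± 44.4 in ID4, 403 ± 57.5 in ID6 and 579 ± 36.4 in REG, against 507 ± 66.1 in NUL, so its ID2 level was the highest of the 7 stages and its LAC level the lowest. Got1 was at 738 ± 43.4 CPM in ID2, while the means of the other stages lay between 359.9 (ID6) and 576 (ID8). ID8_101b, at 733 CPM, lay within the ID2 range of Got1. Dbp was at 23.4 ± 16.9 CPM in ID2 and its means in the other stages lay between 1.31 (ID6) and 7.9 (ID8). For Dbp, ID4_15 at 13 CPM and ID8_14 at 14.2 CPM lay within the ID2 range, whose lowest library was at 12.1 CPM.

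**Figure D5:**
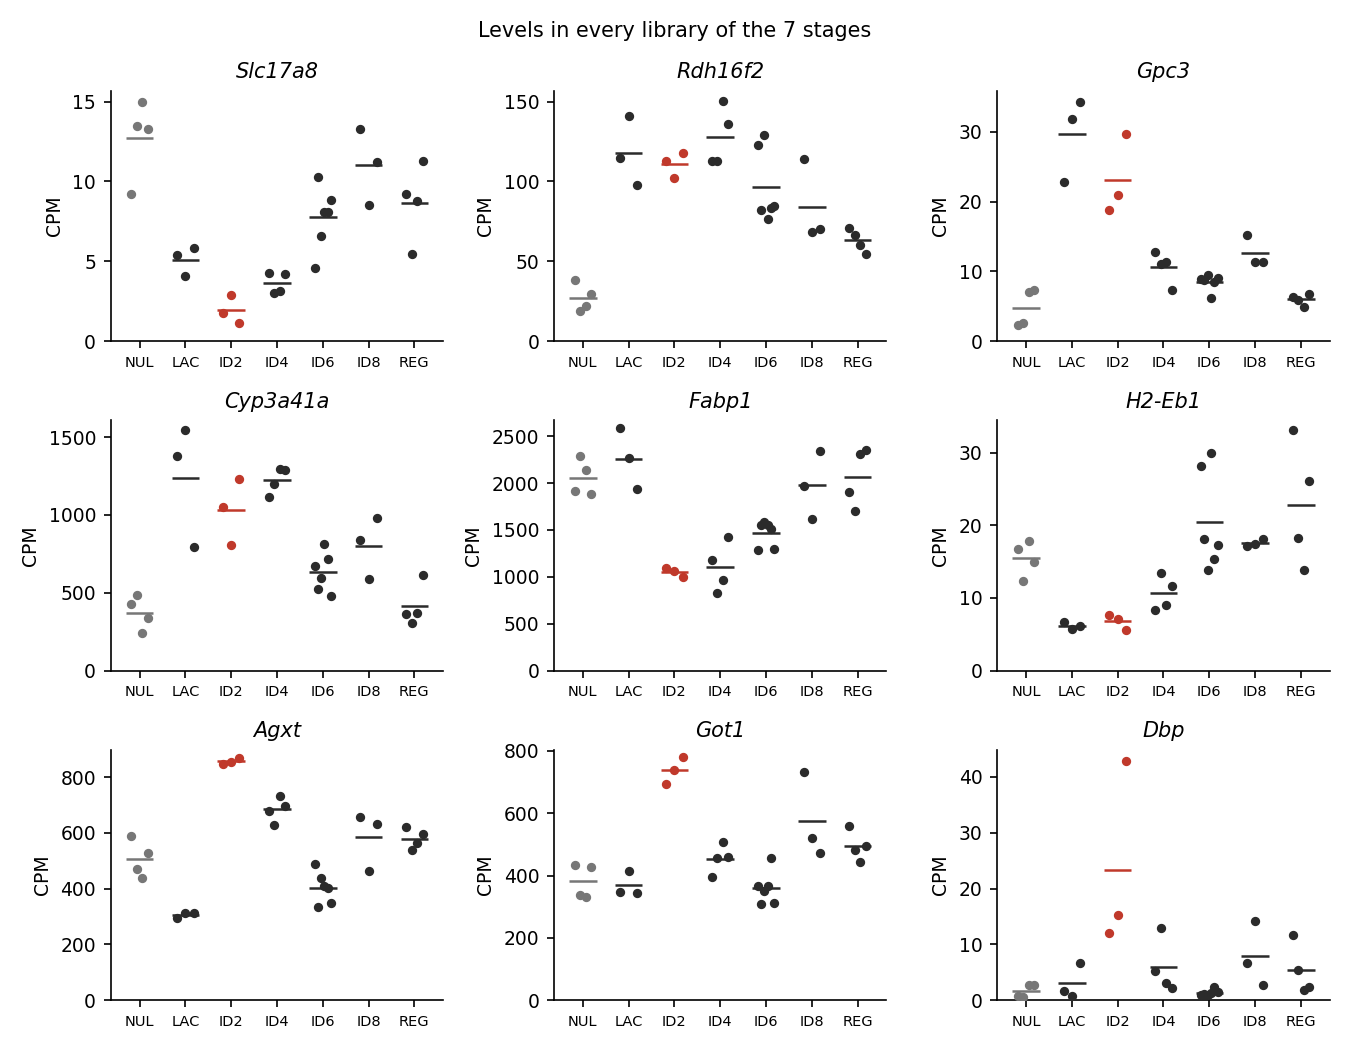
CPM of 9 genes in every library of the 7 stages on a linear axis from 0; each point is 1 library and the bar is the mean, with NUL in grey, ID2 in red and the others in black. Slc17a8, Rdh16f2, Gpc3, Cyp3a41a and H2-Eb1 have LAC values on the same side of NUL as ID2. Slc17a8, Fabp1, Agxt, Got1 and Dbp have their ID2 values apart from LAC. For Dbp, LAC_240 (6.65 CPM) lies above all NUL libraries.

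Day 4 after weaning against 4 weeks after weaning (ID4 against REG) shares no library with the comparison of ID2 and NUL, although all groups were fitted in 1 model. The title numbers are uneven in both: ID4_13 and ID4_15 are under 200 and all REG libraries above it. With the title number as a covariate, 14 genes had the same call in both comparisons, against 74 without it. Of the 381 genes higher at ID2, 51 were also higher at ID4 against REG, which is 13.4% of the former and 13.9% of the 368 genes called higher there (2.24% of all genes). Of the 151 genes lower at ID2, 23 were lower at ID4 against REG, 15.2% of the former and 6.71% of the 343 called lower (2.09%). The opposite call was found for Aldoc among the genes higher at ID2, and for Osgin1, Lyz2 and Il1r1 among those lower. The medians of the 2 sets in that comparison were 0.19 and -0.19. Slc17a8 (-1.25 ± 0.26, adjusted p = 0.00499), Rdh16f2 (1.02, adjusted p = 0.00639), Cyp3a41a (1.56, adjusted p = 5.65e-04), Fabp1 (-0.91, adjusted p = 2.46e-04), Smad9 (-1.81, adjusted p = 2.80e-04), H2-Eb1 (-1.10, adjusted p = 0.0113) and Cd74 (-0.88, adjusted p = 0.0284) were called in the same direction as at ID2. In the amino acid list 0 of 24 genes were called at ID4 against REG and the median was 0.08, with Agxt at 0.24 (adjusted p = 0.252).

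Lactation against 4 weeks after weaning (LAC against REG) shares no library with ID2 against NUL either. Of the 381 genes higher at ID2, 54 were higher in lactation, 14.2% of the former and 6.09% of the 886 called higher (5.39% of all genes), and 43 were lower (11.3%). Of the 151 genes lower at ID2, 27 were lower in lactation, 17.9% of the former and 2.59% of the 1044 called lower (6.36% of all genes), and 24 were higher (15.9%). The medians of the 2 sets were -0.03 and 0.03. Gpc3 (2.31, adjusted p = 2.66e-05), Eci3 (1.55, adjusted p = 0.0037), Lpl (2.02, adjusted p = 1.37e-04) and Bin2 (-1.47, adjusted p = 6.68e-04) had the same direction in lactation as at ID2. Agxt (-0.92, adjusted p = 1.42e-05), Hpd (-0.33, adjusted p = 0.0477), Sds (-0.82, adjusted p = 0.00439), Ccnd1 (2.71, adjusted p = 3.84e-05), Gstp1 (0.93, adjusted p = 2.06e-05) and Acot1 (1.68, adjusted p = 0.0186) had the opposite direction. The difference between the comparisons was not tested for these genes.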

How the data were processed

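RNA of 27 whole mouse livers was sequenced, and 7 libraries (3 ID2, 4 NUL) carry the comparison. Per the labels' protocols, RNA was taken with Trizol from frozen, powdered liver and made into libraries with the NEBNext Ultra kit. The submitters' processing notes name STAR 2.6.1a, RSEM 1.3.1 and builds mm10 and GRCm38, with no setting for strand, so overlapping antisense genes cannot be told apart. The deposited tables give, per gene, the expected count (the RSEM estimate of reads, with reads shared by several genes divided), TPM (transcripts per 1000000) and the effective length in bases, all made by the authors. Such division left 6.1% to 7.04% of a library's genes with fractional counts. Identifiers were named through GENCODE release 21, where 51633 of 51826 matched.

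Expected counts were rounded and tested with edgeR 4.0.16 (R 4.3.3; quasi-likelihood F test, TMM scaling, filterByExpr, Benjamini-Hochberg adjustment over 16428 genes) in 1 fit over all 27 libraries with 7 groups, which share the estimate of spread (biological coefficient of variation 0.19). CPM are TMM-scaled, and a gene was called at an adjusted p under 0.05. Fold changes are log2, ID2 over NUL, with standard errors. The alternatives were DESeq2 1.42.0, limma 3.58.1 on log2(TPM + 1) and log2(TPM + 0.1), other scalings and filters, covariates and each library left out. No 2 libraries of a group were copies: the smallest chi-square per gene between them was 42.4. The fit was tested on simulated data. Promoters came from the RefSeq table of GRCm38.p6, the build of the annotation.

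The genes named are the 15 largest changes in each direction among called genes without overlap, whose log2 CPM averages 1 or more and whose symbol is no placeholder, up to 5 called members of each of 24 process lists by smallest p (2 where none was called), all clock genes and the pancreatic acinar genes. Members, lists and the clock and pancreas checks were chosen with earlier results of these data known. The 7 called genes of the acinar list, and others high in ID2_31 alone such as Amy2a1 and Klk1, are counted among the 532. Sequencing runs per library came from the authors' readme (1 run for ID2_31, ID2_39 and NUL_220, 2 for the other 4). A few named items are not reported here.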

Additional observations from a re-analysis of the deposited data

Results flagged for a closer look

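Within the 4 NUL libraries, 93 named genes and 12 marker sums were searched for 1 library far from the other 3, which chance gives in about 1 of 20. The search flagged 5, about the number that this rate gives. Phospho1 stood at 7.38 CPM in NUL_221, far above 4.39 to 4.83 CPM in the other NUL libraries. Ciart stood at 0.289 CPM in NUL_227 against 0.137 to 0.149 CPM in the others. Cdkn2c stood at 5.04 CPM in NUL_226 against 3.86 to 4 CPM. The summed pancreatic acinar genes stood at 34.3 CPM in NUL_227, and the summed islet genes at 2.6 CPM in the same library. The ID2 group holds 3 libraries and was not searched in this way.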

How the results depend on the processing

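The 532 calls at ID2 against NUL became 865 with DESeq2, 348 and 318 with limma on log2(TPM + 1) and log2(TPM + 0.1), 179 at an adjusted p under 0.01, 27 with the clock score and 108 with the title number as covariates, and 161 to 455 without 1 library (fewest without ID2_39). Further settings, the effective length offset among them, stayed within 1.5 times: 528 with DESeq2 size factors, 364 without the filter, 511 with the 2 groups alone, 389 with sequencing runs as covariate and 515 without mitochondrial and the 20 most abundant genes. Of the called genes, 74 had the same call at ID4 against REG. That number was 160 with DESeq2, 7 with the clock score, 49 with effective length, 44 without the filter, 45 with sequencing runs, 14 with the title number, 22 at an adjusted p under 0.01 and 48 (without ID4_13) to 68 without 1 library. For LAC against REG it was 81, and 140, 6, 19 and 24 with DESeq2, the clock score, the title number and the stricter threshold, and 57 to 76 without 1 library. Per3 (-0.19) and Ciart (-0.58) changed sign with the clock score, which is built from them among others. Pancreatic genes changed sign without ID2_31, the lower end of each range without 1 library: Cela1 -1.27 (adjusted p = 0.00698) to 2.07, Ctrl -0.47 to 9.21, Pnliprp1 -3.64 to 11.42, Clps -1.54 to 13.51, 2210010C04Rik 0.00 to 14.61 and Ctrc -2.26 to 12.23, and Clps came to -0.05 with the title number. For the other settings the cause was not tested. Of 2162 values of named genes under an alternative, 1648 kept their direction and side of the threshold, 492 lost the call and 13 gained one. At 53061082 to 72090249 counts per library, depth bears most on scarce genes, such as Ciart at 0.137 to 0.289 CPM in NUL.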

Other observations

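The genes in this section were picked after their values were seen and are given as values without a test of any group. Of 9 measured Slc38a genes 2 rose, beside 2.32% of all genes, and 0 were called with the clock score in the model. Slc38a3, a glutamine transporter of the hepatocyte surface, rose by 0.91 ± 0.16 (SE, adjusted p = 0.0011) and Slc7a2, which carries arginine and lysine, by 1.21 ± 0.17 (adjusted p = 2.52e-04), and both kept their calls without each library in turn. Slc38a4, a related transporter, rose by 0.50 ± 0.11 (adjusted p = 0.00998) and lost its call without ID2_39 (0.096). With the clock score the adjusted p was 0.215 for Slc38a3, 0.123 for Slc7a2 and 0.243 for Slc38a4. Of 43 measured mitochondrial carriers of the Slc25a family 5 rose, beside 2.32% of all genes, with a median of 0.09 for the family. Without ID2_39, 2 were called, and with the clock score 0 were. Slc25a51, the mitochondrial NAD carrier, rose by 0.68 ± 0.10 (adjusted p = 2.52e-04) and Slc25a48 by 0.90 ± 0.12 (adjusted p = 1.08e-04), both in each fit that left out a library. Slc25a15, which exchanges ornithine and citrulline for the urea cycle, rose by 0.59 ± 0.12 (adjusted p = 0.00378) and lost its call without ID2_39 (0.0537). With the clock score the adjusted p of these 3 was 0.128, 0.0822 and 0.215. Gldc, of the glycine cleavage system, rose by 0.48 ± 0.09 (adjusted p = 0.00263), Mccc2, of leucine breakdown, by 0.46 ± 0.09 (adjusted p = 0.00256), and Afmid, of tryptophan breakdown, by 0.73 ± 0.14 (adjusted p = 0.00412), each in every fit that left out a library. None of these 3 was called with the clock score (0.138, 0.121 and 0.103).

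Of 10 measured Srsf genes, which encode splicing factors, 2 were lower, and of 20 Hnrnp genes 3 were, beside 0.919% of all genes. The medians of these families were -0.25 and -0.02, and 0 genes of either were called with the clock score. Srsf4 fell by 0.35 (SE 0.08, adjusted p = 0.00988) and Srsf2 by 0.41 (SE 0.12, adjusted p = 0.0444), and Hnrnpa2b1, Hnrnpa3 and Hnrnph1 fell by 0.31, 0.35 and 0.42. Srsf4 lost its call without ID2_31 (0.0692), while Srsf2, Hnrnpa2b1, Hnrnpa3 and Hnrnph1 lost theirs without ID2_39 (0.192, 0.138, 0.0949 and 0.143) and without 3 to 5 other libraries. Other RNA-binding proteins rose: Mov10 by 0.37 ± 0.10 (adjusted p = 0.0477), which lost its call without any library but ID2_224 (0.0569 to 0.249), and Dhx58 by 0.72 ± 0.19 (adjusted p = 0.0323), which lost it without ID2_39, NUL_221, NUL_226 or NUL_227 (0.0784 to 0.278). Igf2, a fetal growth factor, was at 0.674 CPM on average in NUL and 3.63 CPM in ID2 (2.43 ± 0.52, adjusted p = 0.0104) and lost its call without ID2_39 (0.0573).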
